A study of Mus musculus with 29 samples.

Results

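The cytosolic ribosomal protein genes encode the proteins that, together with ribosomal RNA, make up the ribosome of the cytosol. They were taken as all protein-coding entries named Rps or Rpl followed by a digit or the letter a, plus Rplp0, Rplp1 and Rplp2, without entries named as pseudogenes and without the S6 kinases. This gave 86 of 54838 genes, 34 with small subunit names and 52 with large subunit names. One of them, Rps19bp1, encodes a protein that binds Rps19 and is not itself a ribosomal protein. Single T cells from spleens of OT-1 mice, whose transgenic T cell receptor recognises an ovalbumin (OVA) peptide, were the material, and their RNA had been amplified over its full length by SMART-seq2. For 3 h they had been kept with antigen-presenting cells (APC), which presented OVA to the 21 cells of the OVA group and nothing to the 8 cells of the nothing group. All cells came from the OT-1 strain, and the labels give no mouse, age, culture or type of APC. Each group is therefore 1 sample, no test between groups was made, and SDs and intervals describe cells only.

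Ribosomal protein mRNAs are among the most abundant mRNAs of most cells, and each protein is needed once or a few times per ribosome, so the genes are usually transcribed in parallel. Many of these mRNAs begin with a C followed by a run of pyrimidines, the terminal pyrimidine tract, through which their translation follows growth signals. Resting T cells hold few ribosomes and make more of them after antigen recognition.

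The start sites of some members show this tract, and these windows are printed because the tract is the sequence feature that ties the family together. A C at the annotated start followed by at least 4 pyrimidines was found in 14 of the 66 members present in the RefSeq promoter table (GRCm38.p6), which is 21.2%. The same start was found in 3.01% of all 27025 symbols of the table and in 0 of 69 mitochondrial ribosomal protein genes. Only the annotated base was read, so a tract a few bases away was not counted. Each line runs from 18 bases before the start to 12 bases from it on, with the pyrimidine run in capitals.
Rps6 (chr4:86857356-86857385, minus strand): gttaagcggaagtcgggcCTCTTTTTCgtg
Rps18 (chr17:33955654-33955683, minus strand): ttatacgtcacttccgctCTCTCTTCCaca
Rpl35 (chr2:39005120-39005149, minus strand): agtcggccccgccctttcCTCTTTCTCTCg
Rpl38 (chr11:114668562-114668591, plus strand): ggaagcggaagcctcgttCTTTCCCCgttc
Rplp2 (chr7:141447633-141447662, plus strand): cactgcgtcagcgtcttcCTTTCgccgccg
Rps27 (chr3:90213637-90213666, minus strand): aggatttccgctttcgctCCTTTCCggcgg
Rps27rt (chr9:114982728-114982757, minus strand): ttaagaacttatcccttgCTTTCCggcggt
Rps27 and the single-exon copy Rps27rt carry the same letters from the second base of the Rps27 transcript on, which is the first of Rps27rt, and different letters before it. The shared run was 38 bases long in their promoter windows. The OVA minus nothing difference described further on had a median of 1.75 over the 14 kept members with such a start and 1.30 over the 45 kept members of the table without one, a distance small beside the spread over members.

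The libraries differed widely in the amount of cellular RNA. Values are TPM, transcript abundance per length scaled to a fixed total that includes the spike-in RNAs, so read depth is unknown and a library with little RNA has low TPM for its genes. Spike-ins held 5.58% to 97.7% of TPM in OVA cells and 14.8% to 99.4% in nothing cells, and over 90% in 5 OVA and 4 nothing libraries. Detection means a TPM of 1 or more, and 233 to 4180 genes were detected per OVA cell against 92 to 6385 per nothing cell. Genes that every cell uses were often at 0, so a gene at 0 is described as listed at 0. Of 11 T cell markers, at least 1 was found in 10 OVA and 2 nothing cells, with summed levels of 0 to 3387 TPM and 0 to 78.7 TPM, and Cd8a and Lck were listed at 0 in all cells. Of 9 neutrophil markers, at least 1 was found in 15 OVA and 5 nothing cells, with summed levels of 0 to 20325 TPM and 0 to 3780 TPM, and Ly6g was listed at 0 in all cells. The labelled cell type was thus not borne out by its markers in most libraries. Fewer transcripts per cell and loss of RNA before amplification cannot be told apart in these values.

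Ribosomal protein genes were detected more often in OVA cells than in nothing cells, while protein-coding genes as a whole were not. The 86 members were detected in 35.2% of their 21 OVA measurements each, averaged over members, and in 13.8% of their 8 nothing measurements. All protein-coding genes outside the mitochondrial genome were detected in 3.20% and 4.06%. Per cell, the lowest number of members detected was 0, the median 20 and the highest 79 in the OVA group, against 0, 4.5 and 53 in the nothing group. The ranges overlapped, and only 5 OVA cells exceeded the highest nothing cell. The SD over cells was 26.2 (OVA) and 17.9 (nothing), larger than the difference between the medians.

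**Figure D1:**
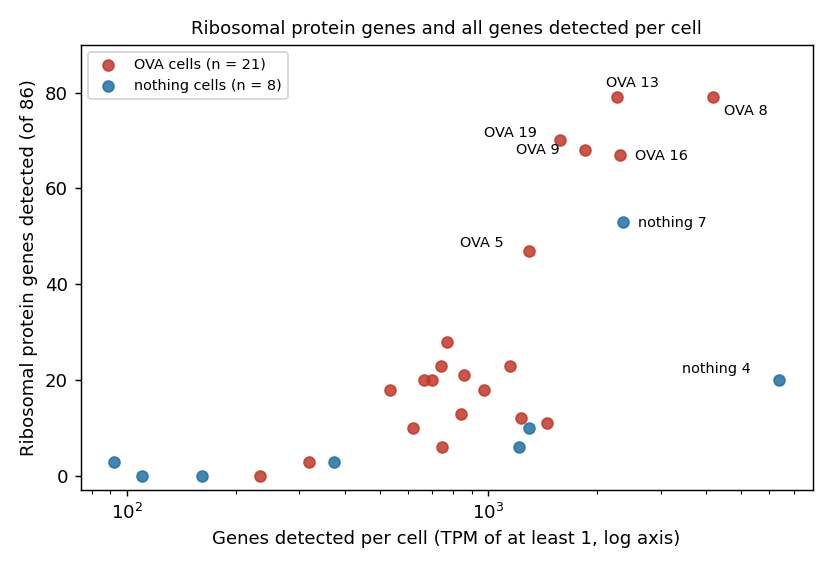
Each point is 1 cell, with the number of genes detected at a TPM of at least 1 on a log axis and the number of the 86 ribosomal protein genes detected on the vertical axis. OVA cells 8, 9, 13, 16 and 19 had 67 to 79 members detected, nothing cell 7 had 53, and nothing cell 4 had 20 although it had the most genes of any cell, 6385.

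A few libraries carried most of the ribosomal protein signal. OVA cells 8 and 13 each had 79 members detected, of which 78 were the same genes. OVA cell 19 had 70, OVA cell 9 had 68 and OVA cell 16 had 67. The members' summed level was 59349 TPM in OVA cell 13, or 44.9% of the sum over all OVA cells, and these 5 cells together held 75.9% of that sum. The 5 cells differed in their markers. OVA cell 13 had 3387 TPM of T cell markers and 0 of neutrophil markers, OVA cell 8 had 15.0 and 20325 TPM, and OVA cell 19 had 0 of both. OVA cell 9 had 410 TPM of T cell markers and 1102 TPM of neutrophil markers, and OVA cell 16 had 74.8 and 4147 TPM. The 6 erythroid markers summed to 452, 352 and 110 TPM in OVA cells 9, 16 and 8, respectively, and to 0 for cells 13 and 19 of that group. Macrophage and dendritic cell markers reached 178 TPM in OVA cell 8, and all 9 B cell markers were listed at 0 in these 5 cells. Over all cells the erythroid markers summed to 0 to 1616 TPM in OVA cells and 0 to 558 TPM in nothing cells, and the macrophage and dendritic cell markers to at most 427 and 79.6 TPM. The part of other cell types in the members' levels was not tested.

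Among the nothing cells, the signal was concentrated in nothing cell 7. It had 53 members detected and a summed member level of 6812 TPM, against 1337 TPM in nothing cell 4 and 1293 TPM in nothing cell 5. Its markers summed to 0 TPM for T cells, 919 TPM for neutrophils and 41.8 TPM for B cells. Erythroid and macrophage and dendritic cell markers were listed at 0 in nothing cell 7. Of the 63 members detected in any nothing cell, 29 were detected only in nothing cell 7 of that group. Nothing cells 2 and 6 had no member detected, as had OVA cell 1. Nothing cells 1 and 3 had 3 members each and nothing cell 8 had 6.

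The contrast was also seen among libraries with many genes, a split chosen after the values were seen. With at least 1000 genes detected, 9 OVA cells had 11 to 79 members (median 67) and 4 nothing cells had 6 to 53 (median 15). With under 500 genes, 2 OVA cells had 0 and 3 members and 4 nothing cells had 0 to 3, with a median of 1.5 in each group. Between these limits lay 10 OVA cells, with 6 to 28 members (median 19), and no nothing cell. These 10 OVA cells enter the medians over all cells without a nothing library of similar gene number to compare them with. The members' rate of detection divided by that of other protein-coding genes in the same cell had a median of 12.0 in OVA cells (range 0 to 25.5) and 2.67 in nothing cells (range 0 to 19.6). The highest nothing value, 19.6 in nothing cell 3, rested on 3 members in a library of 92 genes. OVA cell 19 alone exceeded that value. Nothing cell 4, with 6385 genes, had the lowest ratio among cells with any member detected, 1.33.

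As a share of gene TPM, with spike-ins left out of the total, the members also lay higher in OVA cells. Their share had a lowest value of 0%, a median of 1.28% and a highest value of 8.40% in OVA cells, and 0%, 0.189% and 1.09% in nothing cells. The share was above that of every nothing cell in 12 of 21 OVA cells. OVA cell 13 had 8.40%, OVA cell 14 4.94%, OVA cell 6 3.71% and OVA cell 15 3.49%. Of these, OVA cells 14 and 15 were libraries with over 90% spike-ins and only 20 and 23 members detected. Against protein-coding genes of the nuclear genome alone, the medians were 7.71% and 0.374%, and 13 OVA cells lay above every nothing cell. With only the mitochondrial genes left out of the total the medians were 2.12% and 0.238%, and 5 OVA cells lay above the highest nothing cell, which had 3.14%. Among cells with at least 1000 genes, the share of gene TPM was 0.359% to 8.40% (median 0.870%) in OVA cells and 0.0371% to 1.09% (median 0.443%) in nothing cells.

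**Figure D2:**
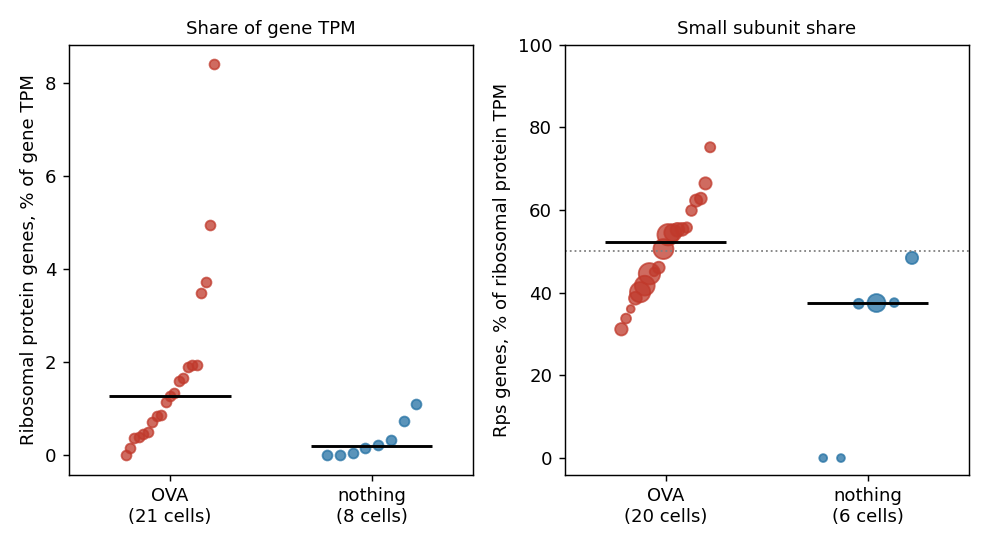
Each point is 1 cell and each bar a group median. Left, the members' share of gene TPM reached 8.40% in OVA cells and 1.09% in nothing cells. Right, the share of the members' TPM that came from small subunit genes, with larger points for cells with more members detected and a dotted line at 50%. It was above 50% in 11 of 20 OVA cells and in none of 6 nothing cells.

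Gene by gene, most of the family lay higher in the OVA group when all cells were used. The difference is the mean of log2(TPM + 1) over OVA cells minus that over nothing cells, a scale that understates differences of low genes. Over all 86 members 81 lay higher, 2 lay lower and 3 were listed at 0 in every cell. Among all 54838 genes 10905 lay higher and 8992 lower. Without the libraries of over 90% spike-ins, 59 of the 79 members that passed the filter given below lay higher and 20 lower. In that setting the median difference was -0.17 over all genes passing the filter and 1.46 over the members. A difference of at least 1 was found in 60 of the 86 members, against 0.631% of all genes with no filter. Detection in at least 3 of 29 cells was met by 3717 genes, and among these 9.31% lay higher by at least 1 and 6.62% lower by at least 1. By the same filter 79 members were kept, of which 60 lay higher by at least 1 and 0 lower by at least 1. Any difference above 0 was found in 77 of them, against 56.4% of all kept genes. Of these 79 members 72 passed the filter through OVA cells alone, as did 2248 of all 3717 kept genes. The shared direction of these members is therefore not separate evidence. The median difference over the kept members was 1.36, against 0.10 over all kept genes. With medians over cells in place of means it was 0, since most members were listed at 0 in most cells of each group. Leaving out OVA cell 13 reduced the number of members higher by at least 1 from 60 to 40, and leaving out nothing cell 7 raised it to 67. The share of all kept genes higher by at least 1 was 7.59% and 13.4% in these 2 settings, respectively.

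**Figure D3:**
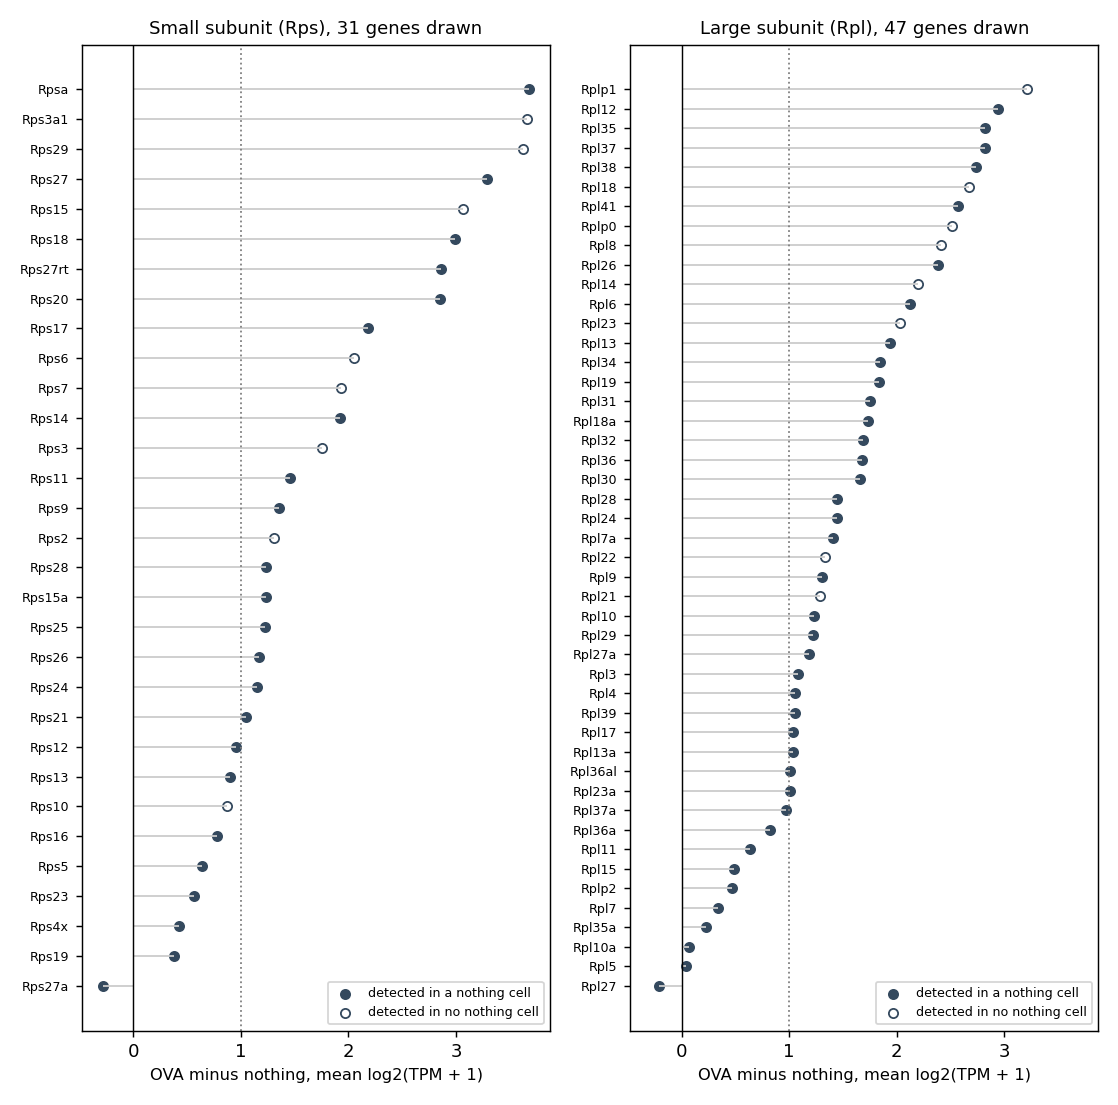
Each point is 1 kept member, with 1 small subunit gene not drawn and the OVA minus nothing difference in mean log2(TPM + 1) on the horizontal axis, by subunit. Open points mark the 16 members detected in no nothing cell. Rpsa is at 3.68 and Rplp1 at 3.21, and Rps27a and Rpl27 lie below 0.

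Both subunits took part to a similar degree. The median difference was 1.33 over 32 kept small subunit members and 1.41 over 47 kept large subunit members, and 23 and 37 of them lay higher by at least 1. Small subunit genes were detected in 38.1% of OVA measurements and 14.3% of nothing measurements, and large subunit genes in 33.3% and 13.5%. The distance between the subunits was small beside the spread over members, whose differences ran from -0.28 for Rps27a to 3.68 for Rpsa among the small subunit genes named here and from -0.21 (Rpl27) to 3.21 (Rplp1) for the large subunit. The percentage of small subunit genes detected exceeded that of large subunit genes in 16 OVA cells and 4 nothing cells. All 34 small subunit names were detected in some cell, but only 48 of the 52 large subunit names were. The names never detected lower the large subunit percentages given here, so these do not compare the regular proteins of the subunits.

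The split of TPM between the subunits varied from cell to cell. Small subunit genes are 39.5% of the members. They held 31.2% to 75.2% (median 52.3%) of the members' TPM in the 20 OVA cells with a member above 0, and 0% to 48.4% (median 37.4%) in 6 nothing cells. The ranges overlapped, and 11 OVA cells lay above every nothing cell. The extremes came from libraries with few members: 75.2% was OVA cell 21, with 11 members detected, and 0% was nothing cells 1 and 3, with 3 each. In the 6 cells with over 50 members detected the share was 37.5% in nothing cell 7 and 40.1% to 54.0% in OVA cells 8, 9, 13, 16 and 19.

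Levels of single members within a cell spanned a wide range. In OVA cell 13 the 79 detected members ran from 22.4 to 5066 TPM around a median of 544 TPM, a 227-fold range. In OVA cell 8 they ran from 12.2 to 793 TPM (median 148), in OVA cell 19 from 1.08 to 881 TPM (median 147), and in nothing cell 7 from 2.11 to 806 TPM (median 90.8). OVA cell 13 had a higher level than OVA cell 8 for 72 of the 86 members. The genes at the top changed between cells. Rpl38, a small protein of the large subunit, was among the 5 highest members in 7 of the 23 cells with at least 5 members detected. Rps27, a zinc-binding protein of the small subunit, was among them in 6 cells. Rpl41, Rplp1, Rps28 and Rps29, which also encode very small proteins or the stalk, were among them in 5 cells each.

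**Figure D4:**
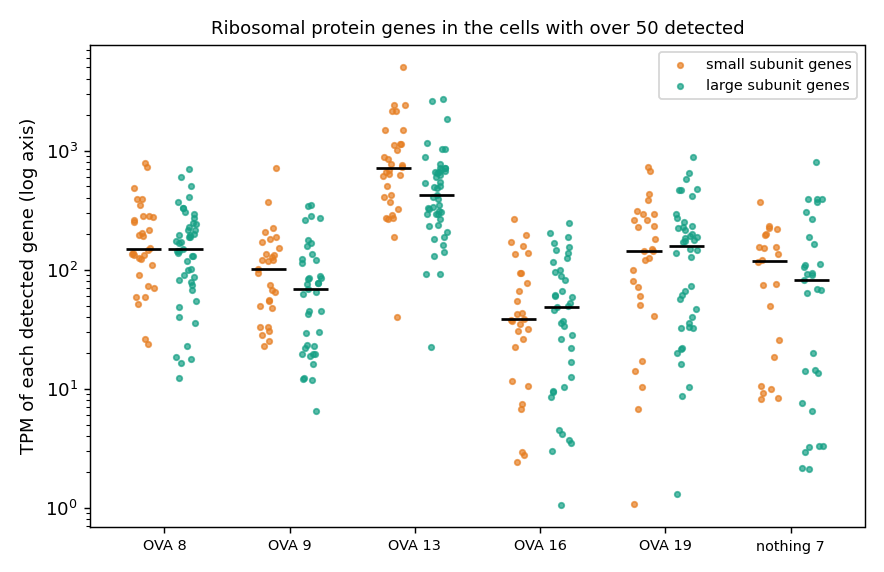
TPM of each detected member on a log axis in the 6 cells with over 50 members detected, split by subunit, with a bar at the median. Members reached 5066 TPM in OVA cell 13, and the medians of small and large subunit genes lay within the spread of single genes in every cell.

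Rpsa, which encodes a small subunit protein also described as the laminin receptor precursor (ENSMUSG00000032518, chromosome 9, 120127689 to 120132369 on GRCm38), was the member found in most cells. Its level had a lowest value of 0, a median of 35.9 and a highest value of 390 TPM in OVA cells, and in the nothing group it was 10.8 TPM in nothing cell 4, 151 TPM in nothing cell 7 and listed at 0 in the other 6. Detection was 90.5% in OVA cells (19 of 21, exact Clopper-Pearson 95% interval 69.6% to 98.8%) and 25% in nothing cells (2 of 8, 3.19% to 65.1%). Intervals cover counting error only. The difference was 3.68, from a mean of 5.03 ± 2.14 (SD over 21 cells) and 1.35 ± 2.69 (SD over 8 cells). Leaving out single cells gave 3.49 to 4.52. Rpsa was the member least dependent on the few rich libraries, being detected in 14 of the 16 OVA cells outside them.

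Rps3a1, Rps29 and Rps15 also had large differences among small subunit genes, 3.66, 3.63 and 3.07. Rps3a1 was at 0 to 504 TPM (median 15.9, detected in 12 of 21 OVA cells) and listed at 0 in 8 of 8 nothing cells, where a count of 0 allows a share of up to 37.5% (the limit of 3 counts, here 3 of the 8 cells). Rps29 and Rps15 were listed at 0 in all nothing cells too. Rps29 was detected in 9 OVA cells at 93.8 to 2394 TPM, and Rps15 in 8 OVA cells at 43.7 to 1488 TPM. The highest level of Rps3a1, Rps29 and Rps15 was in OVA cell 13. In all, 16 of the 79 kept members (20.3%) were found in the OVA group alone, against 25.3% of all kept genes.

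Rps18 and Rps20 were found in libraries of both kinds. Rps18, a protein of the small subunit head, was detected in 10 OVA cells at 15.2 to 2135 TPM and in nothing cell 4 at 19.8 TPM (difference 2.99). Rps20 was detected in 13 OVA cells at 3.14 to 730 TPM and in nothing cell 7 at 49.7 TPM (difference 2.85). Rps6, the target of the S6 kinases, was detected in 6 OVA cells at 74.5 to 656 TPM and listed at 0 in the nothing group (difference 2.06). Of these 6 cells 5 were the OVA cells with the most members, and the sixth was OVA cell 6. The mRNA entry channel genes Rps2 and Rps3 were each detected in 6 OVA cells, and in the nothing group Rps3 was listed at 0 and Rps2 reached 0.668 TPM in nothing cell 7, below detection, with differences of 1.31 and 1.75.

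The acidic stalk, which recruits the translation factors, did not move as a unit in the values as deposited. Rplp0, its base, was detected in 8 OVA cells at 22.0 to 877 TPM and listed at 0 in the nothing group (difference 2.51). Rplp1 was detected in 9 OVA cells at 11.3 to 2721 TPM and listed at 0 in the nothing group (difference 3.21). Rplp2, the partner of Rplp1, was detected in 13 OVA cells at 1.34 to 709 TPM (median over all 21 cells 3.82 TPM). It was also at 329 TPM in nothing cell 4, 395 TPM in nothing cell 7 and 16.8 TPM in nothing cell 5. The difference of Rplp2, 0.47, or 1.32 without nothing cell 7, depended on the libraries and scaling used. It turned to -1.50 without the libraries of over 90% spike-ins and to -0.39 among cells with at least 1000 genes. With spike-ins left out of the total it was 0.98, with mitochondrial genes left out too 1.17, and with size factors 1.91. In nothing cell 7, the richest of its group in members, Rplp2 was at 395 TPM while both partners were listed at 0.

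Among other large subunit members, Rpl12, Rpl35, Rpl37, Rpl38, Rpl18 and Rpl41 had the largest differences. Rpl37 was detected in 13 OVA cells, at up to 657 TPM, and in 3 nothing cells at 2.25, 9.56 and 13.4 TPM (difference 2.82). Rpl12 was detected in 11 OVA cells, at up to 427 TPM, and in nothing cell 7 at 2.95 TPM (difference 2.94). For both genes the nothing cells that had the transcript lay at the low end of the OVA cells' range or under it. Rpl38 was detected in 11 OVA cells, at up to 881 TPM, and in nothing cell 7 at 806 TPM, so that cell lay near the top of the OVA range. The difference of Rpl38 was 2.74, or 3.94 without nothing cell 7. Rpl35, next to the opening of the peptide exit tunnel, was detected in 11 OVA cells, at up to 422 TPM, and in nothing cell 7 at 112 TPM (difference 2.82). Rpl18 was limited to 8 OVA cells (2.67), and Rpl41 was found in 9 OVA cells and nothing cell 7 (2.57). All 8 listed genes around the exit tunnel lay higher in OVA cells by at least 1, up to 2.82 for Rpl35, where 75.9% of all kept members passed the same limit, and Rpl4, Rpl17, Rpl23a and Rpl39 lay within 0.1 of it. The list was chosen with earlier results of these data known.

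Rpl5, Rpl11, Rps27a and Rpl27 had differences under 1 as deposited, whose size or sign depended on the libraries and scaling used. They were not alone in this. Of the 79 kept members, 2 lay lower with all libraries and 20 without the libraries of over 90% spike-ins. The median over all kept genes was 0.10 and -0.17 in these settings, respectively. Rpl5 and Rpl11, which bind the smallest ribosomal RNA of the large subunit and also bind Mdm2, differed by 0.04 and 0.63. Rpl5 was at 80.3 TPM in nothing cell 5, 27.8 in nothing cell 8 and 6.50 in nothing cell 7, and reached 684 TPM among 8 OVA cells. With single cells left out its difference ran from -0.34 to 0.69. Its sign also turned when spike-ins were left out of the total (-0.07) and without the libraries of over 90% spike-ins (-1.16). Rpl11 was highest of all cells in nothing cell 7, at 388 TPM, and its difference was -0.39 without those libraries and 1.66 without nothing cell 7. With size factors Rpl5 was at 1.02 and Rpl11 at 1.44. Rps27a, which encodes a small subunit protein fused to ubiquitin, had the lowest difference of the family, -0.28. It was detected in 8 OVA cells at 4.01 to 271 TPM and in nothing cells 4, 5 and 7 at 97.9, 272 and 199 TPM, so the groups overlapped fully. Rpl27 differed by -0.21, with 3 OVA cells (48.3, 174 and 530 TPM) and 2 nothing cells (20.0 and 52.1 TPM). Without the libraries of over 90% spike-ins Rps27a was lower in OVA cells by more than the limit of 1, at -3.35, and Rpl27 was at -1.15. Among cells with at least 1000 genes Rps27a was at -1.60 and Rpl27 at -0.07. Both turned above 0 with size factors, to 1.03 for Rps27a and 0.69 for Rpl27. With single cells left out Rps27a reached 0.47 (without nothing cell 5) and Rpl27 0.43 (without nothing cell 8). The list of genes mutated in Diamond-Blackfan anaemia, an inherited failure of red cell production, held 9 members, of which 9 lay higher, Rpl5 by only 0.04, against 97.5% of all kept members. By at least 1 it was 4 of 9, against 75.9% of all kept members, and their median was 0.87. The list need not hold every member mutated in this disease, so these counts cover its 9 members only.

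Members with close copies need separate care, since reads can be assigned to either copy. Across the family a median of 35.8% of a member's distinct 50-base words also occurred in transcripts of another gene in GENCODE M21, and 29 of 86 members shared at least 50% of them. The 51 kept members under 50% had a median difference of 1.33 and the 28 kept members at or over 50% had 1.42, so both classes lay close together. Rpl35 shared 95.1% of its words with 12 other genes, of which Wdr38 had the most matches, and Rps27rt shared 91.1%, with the most matches in Rps27. Transcripts of any other gene counted, on both strands, so a gene that shares words need not be a copy of the member. The aligned part of the Rps27 and Rps27rt transcripts, 341 bases long, was 100% identical, as the windows printed above show for the first bases.

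Rps27 and Rps27rt followed each other in the deposited values. Rps27 was detected in 9 OVA cells at 66.3 to 5066 TPM and in nothing cell 7 at 9.89 TPM (difference 3.29). Rps27rt was detected in 13 OVA cells at up to 1006 TPM and in nothing cell 7 at 9.25 TPM (difference 2.86). All 10 cells with Rps27 also had Rps27rt, and 4 cells had Rps27rt alone. How much of either value came from the other gene cannot be read from this table. Rps27l, a paralog with 79.5% identity over the aligned part of the transcript, was detected only in OVA cells 15 and 19, at 242 and 291 TPM.

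The remaining paralogs were rare or absent. Rpl36al, the paralog of Rpl36a, was detected in 8 OVA and 2 nothing cells (difference 1.01). Rpl22l1, the paralog of Rpl22, was detected in OVA cells 13 and 16 at 22.4 and 58.7 TPM, while Rpl22 itself was detected in 5 OVA cells at 18.3 to 226 TPM and in no nothing cell. In OVA cell 13 Rpl22l1 was present and Rpl22 was listed at 0. Rpl3l, Rpl10l and Rpl39l, known from muscle and testis, were listed at 0 in all 29 cells, and Rpl7l1 did not reach 1 TPM in any. These 4, with Rps27l, Rpl22l1 and Rps19bp1 (37.9 and 43.5 TPM in OVA cells 5 and 12), were the 7 members that did not pass the filter. The 77 kept members other than Rps27rt and Rpl36al were thus all the regular ribosomal proteins that the naming rule covers.

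Entries named as pseudogenes of the family also carried signal. The 305 such entries, mostly processed copies of the mRNAs, had summed levels of 39.8 to 12254 TPM (median 771) in OVA cells and 3.54 to 2722 TPM (median 567) in nothing cells. Relative to the members' own TPM the median was 31.8% in OVA cells (12.1% to 140%) and 95% in nothing cells (40.0% to 332%). On both scales the ranges overlapped. In nothing cell 8 the copies held 547 TPM against 165 TPM for the members, and in OVA cell 13 they held 12254 against 59349 TPM. Whether reads of the members were placed on the copies was not tested.

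Ribosomal proteins outside the naming rule lay in the same direction. Fau, which encodes a ubiquitin-like protein fused to a small subunit protein, was found in 10 OVA cells and 1 nothing cell (difference 2.62). Rack1, a scaffold on the small subunit, was found in 11 and 1 (1.35). Of 6 elongation factor genes 3 were kept, Eef1a1 at 2.58, Eef2 at 1.26 and Eef1b2 at 0.67. Of 28 initiation factor and poly(A)-binding genes 12 were kept, 10 higher and 2 lower, 3 by at least 1, with a median of 0.66. Pabpc1, the poly(A)-binding protein whose mRNA also carries a pyrimidine tract, was limited to 8 OVA cells (2.04), and Eif4g2 lay at -0.77.

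Mitochondrial ribosomal protein genes, which encode the separate ribosome of the mitochondrion, showed no such direction. Of 78 such genes 5 were kept, 3 higher and 2 lower, with 0 higher by at least 1 and 1 lower by at least 1 (Mrpl48, -1.16). They were detected in 2.87% of OVA and 3.69% of nothing measurements, near the 3.20% and 4.06% of all protein-coding genes. Ribosome biogenesis factors had a median difference of 0.11 over 7 kept of 25, with Npm1 at 1.78 and Ncl at -1.31. Housekeeping genes, as a comparison of abundant mRNAs, had 8 kept of 13, of which 7 lay higher and 4 by at least 1, with a median of 1.08. Their detection was 19.0% in OVA and 6.73% in nothing measurements. Abundant mRNAs outside the ribosome thus lay in the same direction, and a difference between the family and other abundant mRNAs was not tested.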

How the data were processed

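The authors deposited TPM values, 1 column per cell, each with the same total over 54838 genes, 92 ERCC spike-ins and transgenes. Tools listed in the submitters' processing notes, with no role, are featureCounts 1.6.4, HISAT2 2.1.0 and StringTie 1.3.5, and the builds listed are mm10 and GRCm38, and the treatment of reads with several matches is not given in the sources used here. TPM holds no read numbers, so no depth or count model was available. All 86 members matched GENCODE M21 (GRCm38) by identifier. Detection was TPM of at least 1, the filter detection in at least 3 of 29 cells, and differences used log2(TPM + 1), with Python 3.11, pandas 2.3.3 and numpy 2.4.6. The difference calculation was run on shuffled values of the real genes with known shifts added, which checks its arithmetic only. With 1 sample per group no test was made. Promoter windows were from RefSeq (GRCm38.p6), and 50-base words were compared on both strands with all M21 transcripts. No 2 columns were identical, and doublets were not called. Titles carry serial numbers that run through the OVA cells first, so group and that order cannot be told apart.

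The members and gene lists were chosen with earlier results of these data known. Named members were, for each subunit, the 8 with the largest absolute difference and the 4 detected in most cells, those below 0, and a list of stalk, paralog and other genes. Others named (Rps28, Rps2, Rps3, and the list genes) come from the role lists or from counts of 5 or fewer. Alternatives were pseudocounts of 0.1 and 10, other filters, rescaling without spike-ins, also without mitochondrial genes, size factors, group medians, smaller sets of cells, and the removal of single cells. Of the genes this rule names, 2 are not reported here by name, and 1 of them is left out of the plot of differences, while counts and medians include it.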

Additional observations from a re-analysis of the deposited data

Results flagged for a closer look

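In the nothing group of 8 cells, 3 values stood apart from the rest by Dixon's criterion at the 95% level. Chance alone meets it in about 1 of 20 groups only for 1 measure with normally distributed values. Here several linked and skewed measures were tested, so that rate is too low. Nothing cell 4 had 6385 genes detected, and the next highest had 2364. Nothing cell 7 had 53 members detected, and the next highest had 20. Its summed member level was 6812 TPM, and the next highest was 1337 TPM. The members' share of gene TPM, their relative detection, the small subunit share and the summed pseudogene TPM were tested in the same way and did not stand apart. Single genes were not tested, since most were listed at 0 in most nothing cells.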

How the results depend on the processing

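None of the 7 summary results changed sign under the alternatives run. The medians over members fell to 0 with medians over cells. The number of members higher by at least 1 was 32 with a pseudocount of 10, against 2.45% of all kept genes. It was 24 of 31 with detection in at least 10 cells, against 56.0% of all genes passing that filter. Under that filter the members' median was 1.83, and the median over all genes was 1.14. With medians over cells the number of members was 11, against 3.28% of all kept genes. The members' share against protein-coding genes differed by 7.33 percentage points between the group medians, and the median number of members detected by 52 among cells with at least 1000 genes, a set chosen after seeing the data. With size factors all kept genes had a median of 0.48 (0.10 as deposited) and the members 2.04 (1.36 as deposited). Rescaling without spike-ins gave 0.25 and 1.66. Without the libraries of over 90% spike-ins the members' median was 1.46, with 59 members higher and 20 lower. All kept genes had a median of -0.17 in that setting. There 48 members lay higher by at least 1, against 12.1% of all kept genes. With each cell left out, the median over members ranged from 1.13 to 1.91 (0.998 to 1.92 small, 1.16 to 1.91 large), members higher by at least 1 from 40 to 67, and the OVA minus nothing difference of group medians from 14 to 17 members detected, 1.02 to 1.12 percentage points of gene TPM and 13.1 to 16.6 percentage points of small subunit share. No paired analysis was possible because the labels give no replicate numbers shared between the groups.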
